A study of Mus musculus with 12 samples.

Results

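The *Id* family and *Atoh8* were followed in W-20 cells, a mouse bone marrow stromal cell line, exposed for 2 hours to parathyroid hormone (PTH) or to vehicle. The 5 genes, *Id1*, *Id2*, *Id3*, *Id4* and *Atoh8*, were taken by symbol from the 56980 genes of the count matrix, and all 5 were among the 17691 genes whose counts over the libraries came to 10 or more. The set was chosen by measured values: in these same libraries *Id1*, *Id3* and *Atoh8* had stood out for a smaller fold response to PTH in the mutant cells, and *Id2* and *Id4* complete the family. Their own values are therefore given as a description, with no test. *Id4* passed the filter on low counts with 23 counts in all 12 libraries, 21 of them from wild-type cells, so 4 members carry the results.

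Poly(A)-selected RNA of 4 groups was sequenced with 3 libraries each: wild-type (WT) W-20 cells with vehicle (phosphate-buffered saline), WT cells with 50 nM PTH, Y428F cells with vehicle and Y428F cells with 50 nM PTH. Y428F names W-20 cells that carry YAP, the transcriptional coactivator restrained by the Hippo kinases, with phenylalanine in place of the tyrosine that the name gives, and the comparison asks how that residue bears on the PTH response. The study describes stable lines made with tagged YAP plasmids and selected with puromycin, with this change alone or together with S381A. The study's account of the RNA sequencing calls the mutant cells S381A/Y428F in places and Y428F in others. The titles of their libraries read Y428F, their genotype label reads WT, and whether the line was 1 clone is not given in the sources used here. No library of cells given wild-type YAP was analysed here, so the mutation and other differences between the 2 lines cannot be told apart. Total counts ran from 17127897 to 19057319 per library. The labels do not say that the libraries came from separate cultures, so p-values measure only the spread between these libraries, which may be technical.

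The stromal label was checked against its markers. *Col1a1*, *Col1a2*, *Pdgfrb* and *Cxcl12* were abundant in every library, whereas *Thy1* was at 0 in all 12 and *Lepr* did not exceed 1.06 CPM (counts scaled to the size of the library). The summed CPM of the 10 stromal markers with vehicle was 22227 ± 1888 in WT against 14454 ± 584 in Y428F cells (mean ± SD, n = 3), a sum made mostly of *Col1a1* and *Col1a2*. The list moved with the line in both directions: of 9 markers tested 7 were lower and 2 higher in Y428F cells with vehicle, the higher being *Ly6a* (138 and 324 CPM, log2 fold change 1.23, edgeR adjusted p = 2.37e-12) and *Lepr* (0.143 and 1.03 CPM, edgeR adjusted p = 0.000244). In the same comparison 45.1% of all genes tested passed an adjusted p of 0.05, 22.4% higher and 22.7% lower.

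Id proteins are helix-loop-helix factors without the basic region that contacts DNA. They bind the E proteins, the common partners of tissue-restricted basic helix-loop-helix factors, and so keep those pairs off their E-box sites. *Id1*, *Id2* and *Id3* are classical early targets of bone morphogenetic protein (BMP) signaling through SMAD1, SMAD5 and SMAD9, and in stromal and osteoblastic cells they are associated with the immature state. *Atoh8* encodes a basic helix-loop-helix factor that is also known as a BMP target.

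On GRCm39, with gene names from GENCODE vM39, *Id1* (ENSMUSG00000042745.10) lies on chromosome 2 from 152566218 to 152579544, plus strand, and *Id2* (ENSMUSG00000020644.10) on chromosome 12 from 25143798 to 25147282, minus strand. *Id3* (ENSMUSG00000007872.4) lies on chromosome 4 from 135870808 to 135873066, plus strand, and *Id4* (ENSMUSG00000021379.3) on chromosome 13 from 48414558 to 48419502, plus strand. *Atoh8* (ENSMUSG00000037621.9) lies on chromosome 6 from 72183161 to 72212602, minus strand. The 5 genes thus lie on 5 chromosomes, and all are protein coding.

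The promoters of members that moved together are shown as the 250 bases before the transcription start, from RefSeq on GRCm38.p6, an older build than the coordinates above. A sequence was matched for 4 of the 5 members, all except *Id1*, and those of *Id2*, *Id3* and *Atoh8* are printed. Capitals mark matches, on either strand, to the motifs searched.
Id2, chr12:25096093-25096342, minus strand: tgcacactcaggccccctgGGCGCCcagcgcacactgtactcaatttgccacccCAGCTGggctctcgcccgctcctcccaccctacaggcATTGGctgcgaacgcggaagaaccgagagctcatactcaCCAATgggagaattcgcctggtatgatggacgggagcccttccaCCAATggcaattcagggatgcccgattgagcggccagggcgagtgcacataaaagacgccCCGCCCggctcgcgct
Id3, chr4:136143572-136143821, plus strand: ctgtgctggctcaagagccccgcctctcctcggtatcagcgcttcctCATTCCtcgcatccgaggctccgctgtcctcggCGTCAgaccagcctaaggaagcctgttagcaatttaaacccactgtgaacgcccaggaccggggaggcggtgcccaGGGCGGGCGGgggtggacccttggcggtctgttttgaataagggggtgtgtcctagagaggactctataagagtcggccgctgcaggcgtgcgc
Atoh8, chr6:72235578-72235827, minus strand: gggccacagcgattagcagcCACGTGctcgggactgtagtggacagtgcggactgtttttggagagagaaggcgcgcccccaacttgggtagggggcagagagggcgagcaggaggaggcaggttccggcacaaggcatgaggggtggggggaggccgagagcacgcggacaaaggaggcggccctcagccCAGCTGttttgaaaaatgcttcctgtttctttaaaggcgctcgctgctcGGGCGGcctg
The motifs searched were GGCGCC and GTCTAGAC (SMAD-type), TGACGTCA and TGACG (the full and core cAMP response element), CATTCC (TEAD), CAGCTG and CACGTG (E-boxes), the CCAAT box, the GC box GGGCGG and the core element TATAAA. The letters TGACG lie within TGACGTCA, so these overlap. *Id2* held GGCGCC, which 11.9% of 32544 RefSeq promoters of this length also held, one CAGCTG, 3 CCAAT and one GGGCGG. *Id3* held one CATTCC (14.6% of promoters), one TGACG (20.9%) and 2 GGGCGG that overlap (35.9%). *Atoh8* held one CAGCTG (16.4%), one CACGTG (7.17%) and one GGGCGG. The CCAAT box was in 37.4% and TATAAA in 13.6% of promoters. GTCTAGAC (0.215%) and TGACGTCA (1.8%) were not matched in any of the 3 windows. Over these motifs, no letters were common to all 3 windows except GGGCGG. The bases before the start were 62.8% G or C in *Id2* and *Id3* and 63.2% in *Atoh8*, against a median of 52.4% over all promoters.

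In WT cells, *Id1*, *Id2*, *Id3* and *Atoh8* were all low with vehicle and all higher with PTH, *Id3* by the largest factor. *Id3* gave 3.38, 4.66 and 3.33 CPM with vehicle and 51.6, 49.0 and 52.6 CPM with PTH. *Atoh8* gave 6.24, 5.69 and 6.01 CPM with vehicle and 36.3, 31.5 and 31.6 CPM with PTH. *Id1* gave 1.32, 1.25 and 1.07 CPM with vehicle and 6.72, 7.57 and 6.81 CPM with PTH. In each of these genes the lowest PTH library lay well above the highest vehicle library. *Id2* gave 1.96, 2.96 and 1.98 CPM with vehicle and 13.6, 11.9 and 13.7 CPM with PTH. The second WT vehicle library was the highest of its group for both *Id2* and *Id3*. The log2 fold change was 3.76 ± 0.11 (SE) for *Id3*, 2.53 ± 0.17 for *Id1*, 2.51 ± 0.16 for *Id2* and 2.47 ± 0.10 for *Atoh8*. Among the 11218 genes that averaged 2 CPM or more, these were the 7th (*Id3*), 10th (*Id1*), 11th (*Id2*) and 12th (*Atoh8*) highest fold changes. Groups did not overlap for these 4 genes, with PTH higher, and 13.2% of all genes tested were higher without overlap in this comparison. In all, 13.4% of genes tested passed an adjusted p of 0.05 (edgeR quasi-likelihood test, Benjamini-Hochberg over all genes tested), 7.42% higher and 6.01% lower, against which nothing is read for the members because this contrast was known when they were chosen. In bulk libraries, more cells of a kind and more RNA per cell cannot be told apart.

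**Figure D1:**
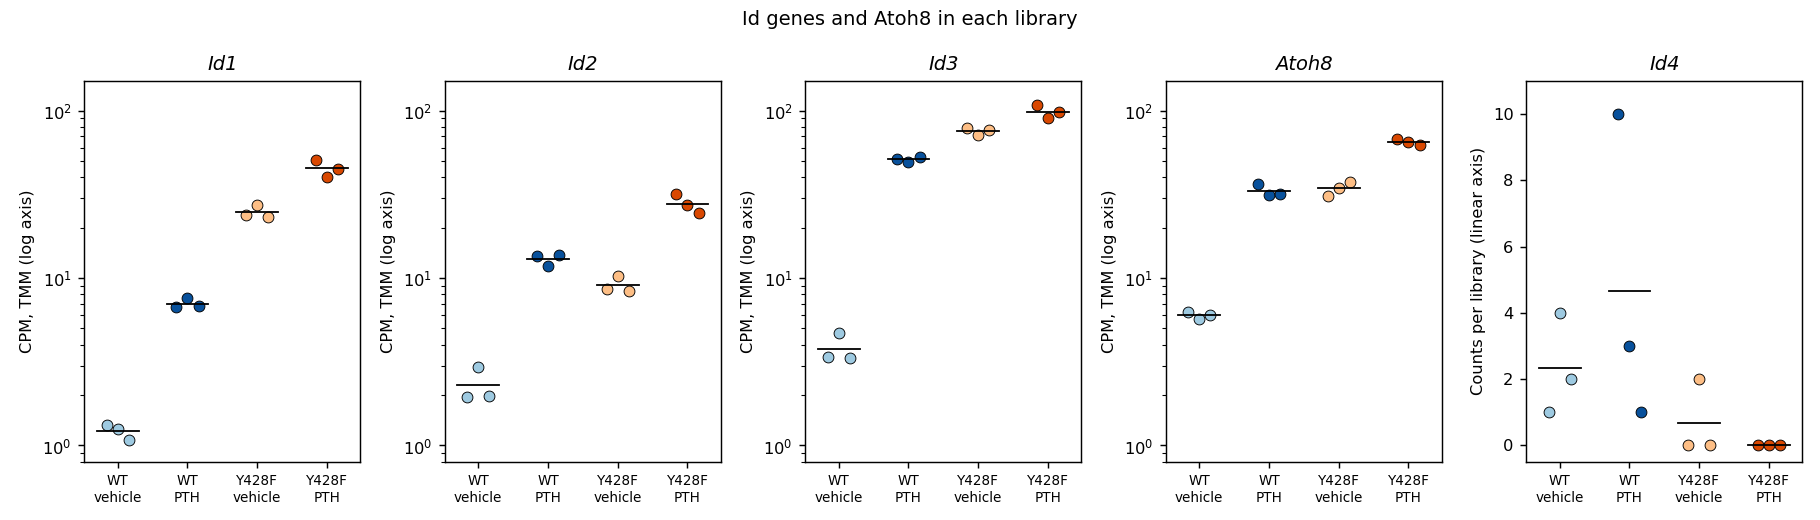
Each point is 1 library and each line the group mean, in CPM on a log axis for *Id1*, *Id2*, *Id3* and *Atoh8* and in counts on a linear axis for *Id4*. The 3 WT vehicle libraries sit lowest and the 3 Y428F PTH libraries highest in the first 4 panels, and *Id4* stays at or below 10 counts.

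In Y428F cells with vehicle, the same 4 genes were already high before any PTH. *Id3* gave 78.5, 71.8 and 76.8 CPM, against 3.33 to 4.66 CPM in WT cells. *Id1* gave 23.7, 27.3 and 23.0 CPM, against 1.07 to 1.32 CPM. *Atoh8* gave 31.1, 34.3 and 37.6 CPM, against 5.69 to 6.24 CPM. None of these Y428F libraries came near a WT vehicle library. *Id2*, at 8.54, 10.3 and 8.41 CPM against 1.96 to 2.96 CPM, differed least. The log2 fold change of Y428F against WT was 4.34 ± 0.15 (SE) for *Id1*, 4.32 ± 0.10 for *Id3*, 2.52 ± 0.10 for *Atoh8* and 1.99 ± 0.17 for *Id2*. The 4 genes thus split by line: *Id1* and *Id3* differed about as much as each other, and more than *Atoh8* and *Id2*. Many genes differed between the lines. Of all genes tested, 27.5% were higher in Y428F without overlap between the groups, and 45.1% passed the test, 22.4% higher and 22.7% lower.

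The level that PTH gave in WT cells can be set beside the level that Y428F cells held with vehicle. As a percentage of the Y428F vehicle mean, the WT PTH mean was 28.5% for *Id1*, 67.5% for *Id3*, 96.6% for *Atoh8* and 144% for *Id2*. For *Atoh8* the ranges of these 2 groups overlapped, at 31.5 to 36.3 CPM and 31.1 to 37.6 CPM. For *Id1* and *Id3* every Y428F vehicle library lay above every WT PTH library, and for *Id2* every one lay below. The members therefore did not share 1 ratio between the 2 states.

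With PTH the 4 genes were higher still in Y428F cells, by smaller factors and in a different order, with *Id2* first and *Id3* last. *Id1* gave 50.7, 40.0 and 44.5 CPM with PTH, and *Id2* gave 31.7, 27.2 and 24.5 CPM. *Id3* gave 107.7, 89.9 and 97.9 CPM, and *Atoh8* gave 67.5, 64.6 and 62.1 CPM. The PTH libraries lay above the vehicle libraries for all 4 genes. The log2 fold change was 1.61 ± 0.12 (SE) for *Id2*, 0.92 ± 0.08 for *Atoh8*, 0.87 ± 0.09 for *Id1* and 0.38 ± 0.07 for *Id3*. Among genes averaging 2 CPM or more, *Id2* ranked 13th, *Atoh8* 62nd, *Id1* 72nd and *Id3* 505th. Of all genes tested, 15.5% were higher without overlap here, and 12.4% passed the test, 6.61% higher and 5.78% lower.

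With PTH in both lines, Y428F cells kept the higher level of each of the 4 genes. The log2 fold change against WT was 2.68 ± 0.11 (SE) for *Id1*, 1.09 ± 0.12 for *Id2*, 0.97 ± 0.08 for *Atoh8* and 0.95 ± 0.08 for *Id3*. *Id1* stood apart from the other three, which lay within 0.15 log2 units of each other. Of all genes tested, 25.6% were higher without overlap and 45.7% passed the test, 22.8% higher and 23% lower.

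The difference in response, the log2 fold change of the mutant line minus that of WT cells, was negative for the 4 genes. It was -3.38 ± 0.13 (SE) for *Id3*, -1.66 ± 0.20 for *Id1*, -1.55 ± 0.13 for *Atoh8* and -0.90 ± 0.21 for *Id2*. The values of *Id1*, *Id3* and *Atoh8* are those by which the set was chosen. Of all genes tested, 0.413% passed the test, 0.17% in the positive and 0.243% in the negative direction.

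The same libraries gave another order when the response was taken as a rise in CPM, the PTH mean minus the vehicle mean. For *Id1* it was 5.82 ± 0.28 CPM (SE) in WT against 20.4 ± 3.39 CPM in Y428F cells, the larger rise being in the line with the smaller fold change. For *Id2* it was 10.8 ± 0.68 CPM in WT against 18.7 ± 2.19 CPM in Y428F cells. For *Atoh8* it was 27.1 ± 1.58 CPM in WT against 30.5 ± 2.44 CPM in Y428F cells, a difference of 3.31 ± 2.90 CPM that is near its own standard error. Among these 4 genes, *Id3* alone had the smaller rise in Y428F cells on this scale too, 22.8 ± 5.52 CPM against 47.3 ± 1.16 CPM. Both scales describe the same values, and the vehicle level of each gene was higher in Y428F cells. A like rise in CPM would make a smaller ratio there, but only for *Atoh8* was the difference in rise near its standard error. The part of the vehicle level in the smaller ratios was not tested.

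**Figure D2:**
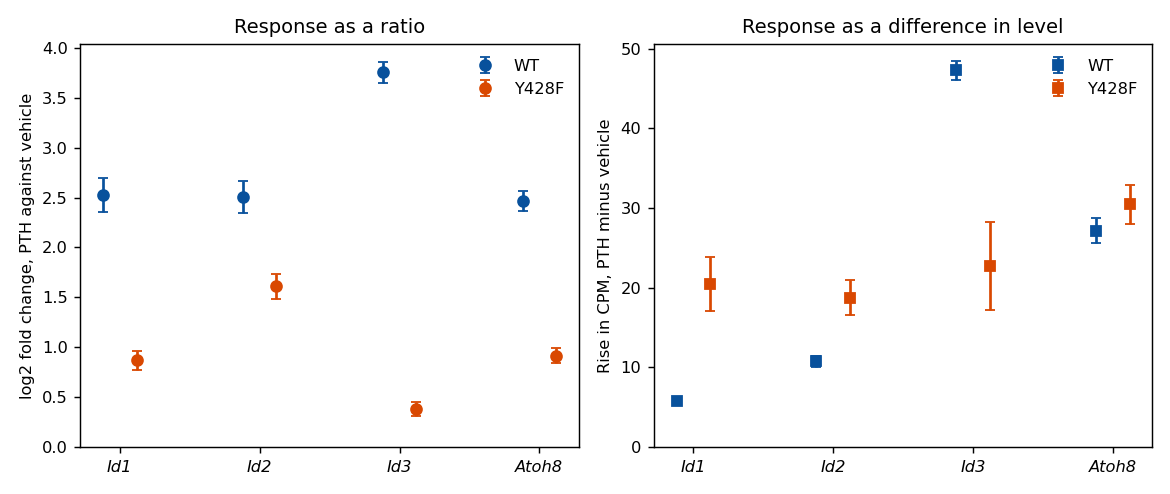
The response to PTH of 4 genes in WT (blue) and Y428F (orange) cells is plotted as a log2 fold change on the left and as a rise in CPM on the right, with bars of ± 1 SE (3 libraries a group); heights in the right panel are compared between lines within a gene, not between genes. On the left WT lies above Y428F for all 4 genes, and on the right only *Id3* keeps that order.

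*Id4* was at the limit of detection. It had 1, 4 and 2 counts in WT cells with vehicle, 10, 3 and 1 with PTH, and 0, 2 and 0 in Y428F cells with vehicle. No count was seen in the Y428F PTH libraries. The groups of WT cells overlapped, the Y428F groups lay at or under 3 counts per library, and no fold change is given.

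Levels of different genes were compared per kilobase of merged exons (CPM per kb). In WT cells with vehicle, *Atoh8* (2.35) and *Id3* (2.12) were highest, and their libraries overlapped. *Id1* (0.685) and *Id2* (0.660) followed, also overlapping, then *Id4*. With PTH, *Id3* led at 28.5 CPM per kb, then *Atoh8* at 13.0, with *Id1* (3.96) and *Id2* (3.75) again overlapping. In Y428F cells with vehicle, *Id3* led at 42.3 CPM per kb, followed by *Id1* (13.9) and *Atoh8* (13.5), whose libraries overlapped, and by *Id2* (2.61). That overlap depends on the length used: per kilobase of the longest transcript *Id1* ran from 17.4 to 20.7 and *Atoh8* from 13.0 to 15.7 CPM. With PTH, *Id3* stood at 55.0, *Atoh8* and *Id1* both at 25.4 with overlapping libraries, and *Id2* at 7.98 CPM per kb. *Id3* was thus the most abundant member in 3 of the 4 groups. Per kilobase of the longest transcript it also led in WT cells with vehicle, at 2.97 against 2.50 CPM for *Atoh8*, with libraries that overlapped.

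As one pool, the 4 *Id* genes summed to 3.49 ± 0.63 CPM per kb (SD, n = 3) in WT cells with vehicle and to 36.3 ± 1.08 with PTH. In Y428F cells the pool was 58.8 ± 0.73 with vehicle and 88.4 ± 8.75 CPM per kb with PTH. *Id3* made up 60.5% of the pool in WT cells with vehicle, 78.6% with PTH, 71.9% in Y428F cells with vehicle and 62.3% with PTH. *Id1* made up 19.9% and 10.9% of the pool in WT cells with vehicle and PTH, and 23.6% and 28.7% in Y428F cells. *Id2* had its lowest share, 4.44%, in Y428F cells with vehicle. PTH was thus accompanied by a larger *Id3* share in WT cells and a smaller one in Y428F cells. The E protein genes *Tcf3*, *Tcf4* and *Tcf12*, whose products Id proteins bind, summed to 42.0, 37.4, 39.6 and 34.1 CPM per kb in the same order of groups. The ratio of the *Id* sum to the E protein sum was 0.0832 ± 0.015 and 0.972 ± 0.064 in WT cells with vehicle and PTH (SD). It was 1.48 ± 0.0059 and 2.60 ± 0.36 in Y428F cells, so the ratio moved mostly with its numerator. The size of this RNA ratio depends on the lengths used: with the longest transcript of each gene, an alternative chosen after seeing the data, it was 0.0598, 0.702, 1.19 and 2.00, in the same order.

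**Figure D3:**
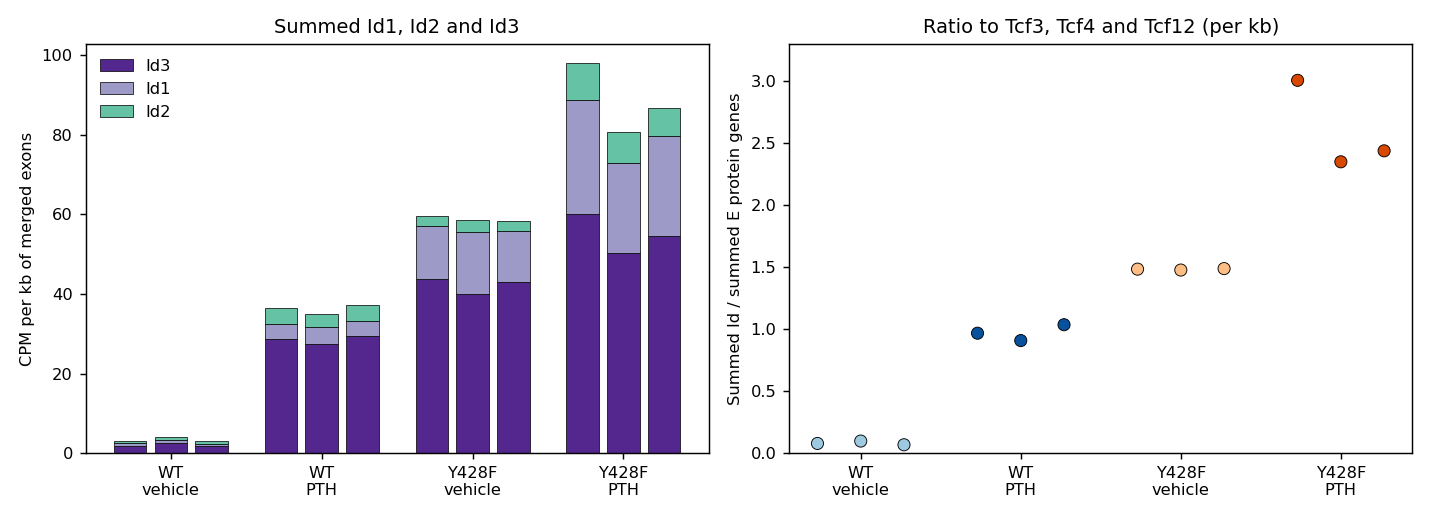
Left, stacked CPM per kb of merged exons of *Id3*, *Id1* and *Id2* in each of the 12 libraries, with *Id4* too low to draw. Right, the ratio of the summed *Id* genes to the summed E protein genes in each library: the WT vehicle libraries lie under 0.1, and the Y428F PTH libraries lie between 2.35 and 3.01.

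The surrounding pathway was read from 10 lists of 122 genes, of which 68 were tested. The lists were written with earlier results of these data known, so no excess over all genes tested is read from the shares below. Without the members, 8 rose and 8 fell with PTH in WT cells (16 of 68, 23.5%, against 13.4% of all genes tested), and 13 rose and 6 fell in Y428F cells (27.9% against 12.4%). With scaling to library totals the split in WT cells was 5 higher and 9 lower. Between the lines with vehicle 13 were higher and 31 lower in Y428F cells (64.7% against 45.1% of all genes tested), and with PTH 14 were higher and 26 lower (58.8% against 45.7%). The adjusted p-values below are from the same edgeR test over all genes.

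Of 13 BMP ligand genes, 4 were tested, and between the lines with vehicle 1 was higher and 1 lower in Y428F cells. *Bmp4*, a ligand that induces *Id* genes, had 1 to 7 counts per WT vehicle library and 478 to 509 per Y428F vehicle library, 0.181 and 26.2 CPM. Its log2 fold change between the lines was 7.12 ± 0.23 (SE, edgeR adjusted p = 1.74e-15). In Y428F cells it fell by 0.43 on the log2 scale with PTH (edgeR adjusted p = 0.0161). That fall was no longer called when Y428F vehicle library 1 or 3, or Y428F PTH library 1 or 3, was left out. *Bmp4* did not pass the test with PTH in WT cells (edgeR adjusted p = 0.583, 3 to 7 counts with PTH). The lower ligand was *Gdf7*, with 8 to 18 counts per WT and 2 to 8 per Y428F vehicle library (edgeR adjusted p = 0.035), singled out after its values were seen and no longer called without vehicle library 1 or 3 of either line. The part of *Bmp4* in the members' levels was not tested.

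Of the 11 BMP receptor and coreceptor genes, all tested, 7 were lower and 1 higher in Y428F cells with vehicle, with a median log2 fold change of -0.41 against 0.01 over all genes. Among those averaging 2 CPM or more, *Acvr2b*, a type II receptor, was lowest at -2.10 (edgeR adjusted p = 1.01e-07). The 1 gene higher was *Bmpr1b*, a type I receptor, with 0 to 8 counts per WT and 53 to 66 per Y428F vehicle library. *Bmpr1b* lay under the level set for naming genes and was singled out after its values were seen. The same holds for *Hjv*, 1 of the 7 lower, with 1 to 5 counts per WT vehicle library and 0 in every Y428F vehicle library. The *Hjv* call was lost in 9 of 17 alternatives. Of the 6 antagonist genes tested, 3 were higher and 3 lower: *Chrd*, which sequesters BMPs, had a log2 fold change of -2.62 (edgeR adjusted p = 3.35e-09) and *Fstl3*, an activin-binding protein, one of 0.58 (edgeR adjusted p = 1.78e-07). The 3 higher include *Bmper*, also under the level for naming, with 0 counts in every WT vehicle library and 1 to 7 per Y428F vehicle library.

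Several SMAD genes downstream of the receptors rose with PTH. In WT cells their fold changes were below those of the 4 members, whereas in Y428F cells that of *Smad9* was above those of *Id1*, *Id3* and *Atoh8*, and that of *Smad7* above that of *Id3*. With PTH, *Smad9* rose from 8.38 to 15.0 CPM in WT and from 9.57 to 22.0 CPM in Y428F cells, log2 fold changes of 0.84 and 1.20 (edgeR adjusted p = 5.53e-05 and 5.24e-07). *Smad6*, an inhibitory SMAD that is itself a BMP target, rose with PTH in both lines, from 37.8 to 50.6 CPM in WT and from 44.0 to 57.0 CPM in Y428F cells (edgeR adjusted p = 0.000246 and 0.000712). *Smad7*, the other inhibitory SMAD, rose by 0.28 and 0.70 on the log2 scale (edgeR adjusted p = 0.0341 and 6.27e-06), the WT call being lost without WT vehicle library 2 or 3 or WT PTH library 1 or 2, and with scaling to library totals. With vehicle, *Smad6* was 0.22 and *Smad7* 0.31 log2 units higher in Y428F cells (edgeR adjusted p = 0.013 and 0.00517), against 4.34 for *Id1*, and the *Smad6* call was lost without WT vehicle library 2 or Y428F vehicle library 1. *Smad1* rose with PTH in both lines, from 34.3 to 48.4 CPM in WT and from 29.5 to 35.2 CPM in Y428F cells (edgeR adjusted p = 0.00023 and 0.0474). The second of these calls was lost without WT PTH library 2, any 1 Y428F vehicle library or Y428F PTH library 1 or 2, and with scaling to library totals. *Smad5* passed the test in none of the 5 comparisons, but was called lower with PTH in WT cells with scaling to library totals. *Smad4*, the common partner, was 0.37 log2 units lower in Y428F cells with vehicle (edgeR adjusted p = 8.69e-06) and 0.19 higher there with PTH than with vehicle (edgeR adjusted p = 0.0263), the latter lost without Y428F vehicle library 1 or 2 or Y428F PTH library 1 or 2, and with scaling to library totals. Of the 14 feedback and target genes tested, 3 rose and 2 fell with PTH in WT cells, with a median log2 fold change of -0.19. These 5 became 3 without WT vehicle library 2 or 3 or WT PTH library 2 (*Smad7* and *Dlx2* lost) and without WT PTH library 1 (*Smad7* and *Smurf1* lost). In Y428F cells 4 rose and the other 10 did not pass the test, with a median of 0.09. Between the lines with vehicle 3 of the list were higher and 5 lower in Y428F cells, with a median of -0.21. The higher were *Smad6*, *Smad7* and *Msx2* (log2 fold change 0.50, edgeR adjusted p = 0.000569), and the lower *Bambi*, *Msx1*, *Runx2*, *Gata3* and *Junb*. *Bambi* lay under the level for naming genes, with 26 to 34 counts per WT and 15 to 20 per Y428F vehicle library. The 8 genes called became 5 without WT vehicle library 2 (*Smad6*, *Bambi* and *Junb* lost).

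**Figure D4:**
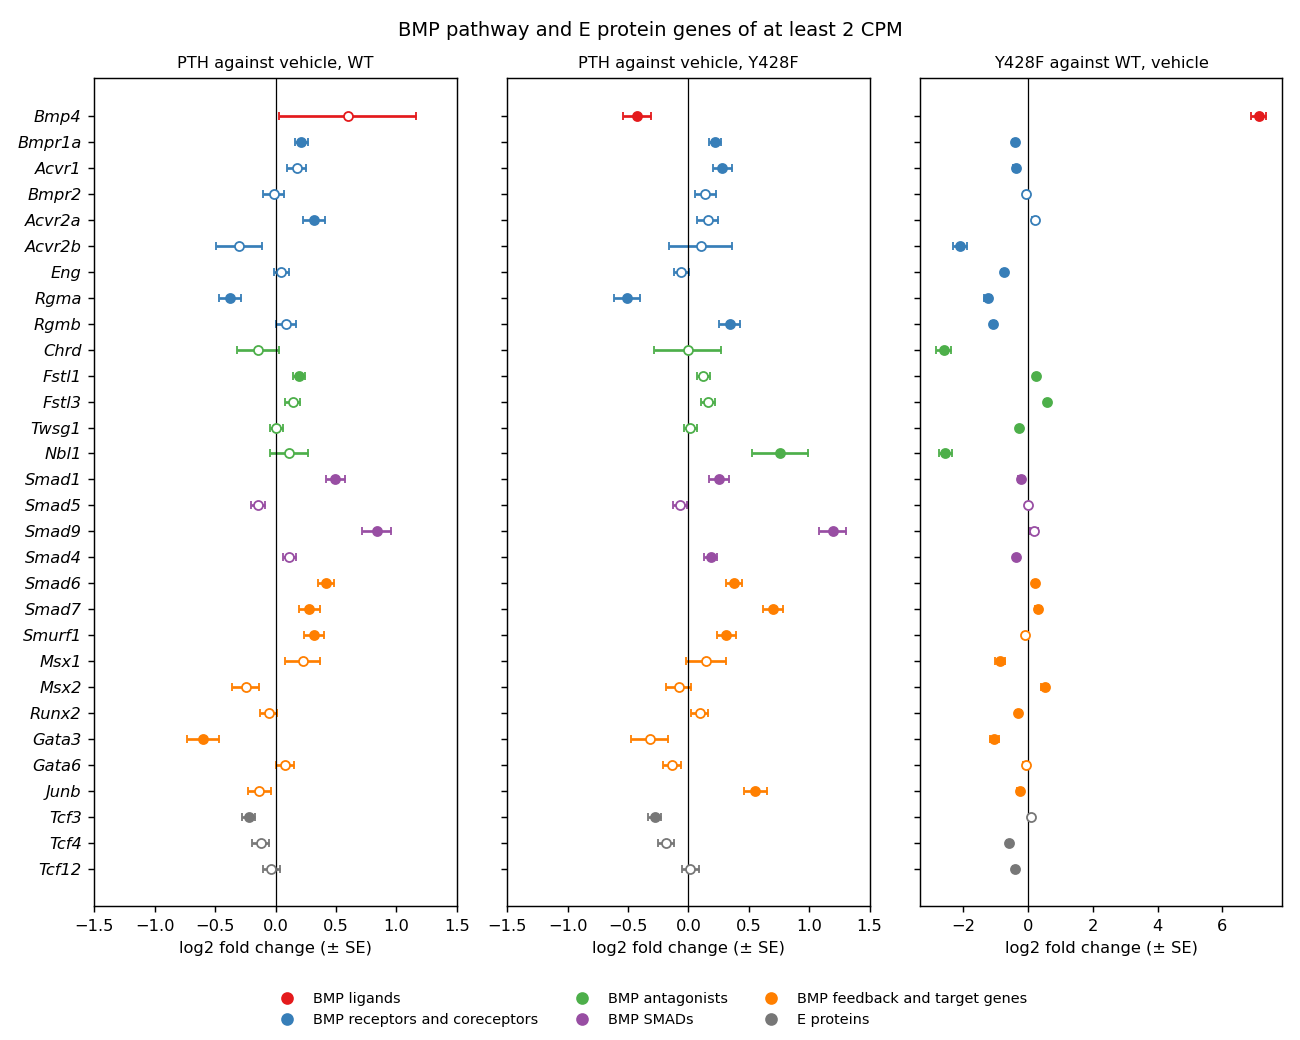
Log2 fold changes with bars of ± 1 SE for BMP pathway and E protein genes of at least 2 CPM in 3 comparisons, filled where the edgeR adjusted p was under 0.05; the right panel has a wider axis. *Bmp4* stands at 7.12 in Y428F against WT, and *Smad9* is the highest of these genes with PTH in both lines, at 0.84 and 1.20.

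The partners of the Id proteins were also read. *Tcf3*, the E2A gene, fell with PTH by 0.22 on the log2 scale in WT and by 0.28 in Y428F cells (edgeR adjusted p = 0.00763 and 0.00132). *Tcf4* and *Tcf12* were lower in the vehicle-treated mutant line, at -0.60 and -0.40 on the log2 scale (edgeR adjusted p = 2.85e-07 and 7.39e-05). Of 39 tissue-restricted basic helix-loop-helix factors 8 were tested, and none passed with PTH in either line. Between the lines with vehicle, *Scx*, a tendon factor, was higher at 1.61 and *Twist1*, a mesenchymal factor, lower at -0.57 (edgeR adjusted p = 1.8e-07 and 7.34e-07). Of 8 HES, HEY and BHLHE repressors tested, none passed with PTH in WT cells, while 2 did in the mutant line, *Bhlhe40* higher and *Hes6* lower, the latter call being lost without Y428F vehicle library 1 or 3 or any 1 Y428F PTH library. Of 7 CDK inhibitor genes, among them several that E proteins activate, 4 fell with PTH in WT cells, *Cdkn1a* most at -0.67 (edgeR adjusted p = 0.00779), and 2 in Y428F cells. Without WT PTH library 2 the 4 became 2 (*Cdkn2c* and *Cdkn2d* lost), *Cdkn2c* was also lost without WT vehicle library 1 or 3 or WT PTH library 1, and *Cdkn2d* remained alone in Y428F cells without vehicle library 1 or 3 or PTH library 2 or 3. Of 4 other factors reported to act on *Id* genes, none passed with PTH in WT cells. *Egr1* and *Egr2* were lower in Y428F cells with vehicle, at -1.25 and -2.52 (edgeR adjusted p = 9.14e-08 and 5.37e-07), opposite in sign to the members. *Egr3* and *Atf3* did not pass there (edgeR adjusted p = 0.125 and 0.22).

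The nearest genes tested on either side of each member were read for a shared change of the region. None passed the test of the difference in response (edgeR adjusted p = 0.846 to 1). Beside *Id1*, *Bcl2l1* was 0.79 log2 units higher in Y428F cells with vehicle (edgeR adjusted p = 3.31e-08), and *H13* 0.13 (edgeR adjusted p = 0.0467). *Bcl2l1* also rose with PTH in Y428F cells, by 0.31 on the log2 scale (edgeR adjusted p = 0.00761). Beside *Id3*, *E2f2* was 1.68 log2 units higher in Y428F cells with vehicle (edgeR adjusted p = 7.09e-09) but fell by 0.63 with PTH in WT cells (edgeR adjusted p = 0.025), where *Id3* was higher. *Rpl11*, on its other side, did not pass in any comparison. *Kidins220* beside *Id2* and *St3gal5* beside *Atoh8* were lower in Y428F cells with vehicle, at -0.37 and -0.23 (edgeR adjusted p = 8.4e-05 and 0.00465). *Zfp169* beside *Id4* was lower at -0.45 (edgeR adjusted p = 0.0367), and the remaining neighbours, *Rnf144a*, *Rnf144b* and *Sftpb*, averaged under 0.4 CPM. Of these *Rnf144a*, 1203681 bases from *Id2*, and *Rnf144b*, 1013091 bases from *Id4*, lie far from the member, while the other neighbours lie 15628 to 221621 bases away. *Rnf144a* had 11 to 22 counts per WT vehicle library and 0 in every Y428F library, and was lower in Y428F cells with vehicle (edgeR adjusted p = 4.99e-05). The median log2 fold change of Y428F against WT, with vehicle or with PTH, over the genes averaging 2 CPM or more on each member's chromosome lay between -0.17 and 0.12.

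Over the 12 libraries, the log2 CPM of the 4 detected members correlated with Pearson's r between 0.88 (*Id1* and *Id2*) and 0.98 (*Id3* and *Atoh8*). These points share their groups, and within groups r ran from -0.20 to 0.74. The gene most like *Id1* among 11217 was *Naa50* (r = 0.99), followed by *Ddx21*, *Tuba1c*, *Ppp2ca* and *Lrrc59*. For *Id2* it was *Mapre1* (r = 0.997), followed by *Azin1*, *Usp12*, *Nup54* and *Dnaja1*. For *Id3* it was *Stbd1* (r = 0.98), followed by *Atoh8*, *Otud6b*, *Lgr4* and *Azin1*, and for *Atoh8* it was *Azin1* (r = 0.99), followed by *Pkp2*, *Cited2*, *Coro1c* and *Nup54*. With Spearman's rank correlation 1, 1, 0 and 0 of these 5 genes returned for *Id1*, *Id2*, *Id3* and *Atoh8*.

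Markers of other cell types moved with the line, some higher and some lower in Y428F cells. The summed CPM of 6 endothelial markers was 3.79, 2.99, 10.1 and 7.61 over the 4 groups in the order WT vehicle, WT PTH, Y428F vehicle and Y428F PTH, and that of 6 haematopoietic markers 2.17, 1.97, 6.60 and 7.65. The endothelial sum in Y428F cells was mostly *Cdh5* (a mean of 0.810 CPM in WT vehicle and 7.95 CPM in Y428F vehicle libraries), whereas *Vwf*, the most abundant of them in WT cells, was lower there (2.37 and 1.18 CPM, log2 fold change -1.01, edgeR adjusted p = 0.00427). *Tek* did not pass (edgeR adjusted p = 0.792), and *Pecam1*, *Kdr* and *Emcn* did not exceed 0.303 CPM in any library. Of the haematopoietic markers *Ptprc* reached 2.79 and *Lyz2* 3.04 CPM in Y428F cells with vehicle, and *Adgre1* did not exceed 0.0569 CPM. In WT and Y428F vehicle libraries *Csf1r* had 0.320 and 0.163 CPM, *Itgam* 0.143 and 0.0182 CPM, and *Cd68* 0.331 and 0.587 CPM. These did not pass (edgeR adjusted p = 0.322, 0.0989 and 0.341). Among 6 osteoblast markers *Spp1* was abundant (768 CPM in WT vehicle and 489 CPM in Y428F vehicle libraries), and *Alpl*, *Bglap*, *Ibsp*, *Dmp1* and *Sp7* did not exceed 0.376 CPM. Among 5 adipocyte markers *Lpl* was the most abundant. It was slightly higher in Y428F cells (330 and 367 CPM with vehicle, log2 fold change 0.15, edgeR adjusted p = 0.0496). *Fabp4* was lower in Y428F cells (26.9 and 6.57 CPM with vehicle, log2 fold change -2.03, edgeR adjusted p = 8.67e-11) and *Adipoq* was at 0. The summed CPM of the adipocyte list with vehicle was 357 in WT against 374 in Y428F cells. The part of these markers in the members' levels was not tested.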

How the data were processed

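RNA of 12 libraries was analysed (4 groups of 3, grouped by their titles). The authors mapped reads with STAR 2.7.10b to GRCm39 with the GENCODE vM31 basic annotation and deposited RSEM expected counts per gene, which were rounded to whole numbers here. Whether the libraries kept strand is not settled by the labels. Symbols came from GENCODE vM39 (56236 of 56980 identifiers matched). The members and gene lists were chosen with earlier results of these data known. Genes with 10 or more counts over the libraries (17691) entered one edgeR 4.0.16 quasi-likelihood fit of the 12 libraries (TMM scaling, R 4.3.3), with 5 contrasts, and genes were called at a Benjamini-Hochberg adjusted p under 0.05. CPM uses TMM library sizes. The fit was tested on simulated data. Genes named were the members, the called gene with the largest change in each direction per list and comparison (mean of at least 2 CPM), fixed genes (E proteins, SMADs, other regulators), neighbours, and the 5 genes most correlated with each member (log2 CPM, prior count 2). Some genes meeting the rule are given only as counts. Alternatives were DESeq2 1.42.0, other scalings, filters and thresholds, a replicate block, fits of 2 groups and leaving out each library. Same-numbered libraries did not deviate together.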

Additional observations from a re-analysis of the deposited data

Results flagged for a closer look

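*Egr2*, *Junb* and *Bhlhe40*, from the pathway lists, differed between the lines in their response to PTH, by the interaction term of the same edgeR fit. The difference, Y428F minus WT on the log2 scale, was positive in each and so opposite in sign to that of *Id1*, *Id2*, *Id3* and *Atoh8*. *Egr2*, an immediate early factor, had 44, 95 and 75 counts with vehicle and 104, 78 and 78 with PTH in WT cells, and 14, 13 and 11 against 61, 65 and 54 in Y428F cells. Its difference was 1.89 ± 0.39 (SE, edgeR adjusted p = 0.0289, range over alternatives 1.65e-05 to 0.117). *Junb*, an AP-1 subunit and BMP target, had group means of 74.4 and 67.8 CPM with vehicle and PTH in WT cells and of 62.3 and 91.5 CPM in Y428F cells. Its difference was 0.69 ± 0.13 (edgeR adjusted p = 0.0215, range 6.04e-10 to 0.0794). *Bhlhe40*, a basic helix-loop-helix repressor, had 57.5 and 61.9 CPM in WT and 41.9 and 69.0 CPM in Y428F cells. Its difference was 0.61 ± 0.10 (edgeR adjusted p = 0.00997, range 1.39e-06 to 0.0448), and it was called under every alternative run. In all 3 genes every Y428F PTH library lay above every Y428F vehicle library, and the WT groups overlapped in *Junb*, *Bhlhe40* and *Egr2*. The call of *Egr2* was lost on leaving out any library except WT vehicle library 1 or WT PTH library 1, and that of *Junb* without WT vehicle library 2 or 3, WT PTH library 1, Y428F vehicle library 2 or 3, or Y428F PTH library 3.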

How the results depend on the processing

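Of 376 alternative values of the members' log2 fold changes none reversed and 2 moved by more than the spread between replicates: without WT vehicle library 2, the highest of its group for both genes, the difference in response was -1.12 for *Id2* and -3.55 for *Id3*. Leaving out each library in turn gave ranges of -1.12 to -0.80 and -3.55 to -3.29. No other single value reversed. At a stricter limit (0.01 for the adjusted p and 0.3 for the size of the log2 fold change), the genes called numbered 1073 for PTH in WT cells (2375 as reported), 942 for PTH in Y428F cells (2192) and 22 for the difference in response (73), and the pathway genes called 8, 8 and 1 for these comparisons and 29 for Y428F against WT with vehicle (16, 19, 3 and 44 as reported). For the difference in response DESeq2 called 123 and the fit without a filter 216. Leaving out 1 library gave 1591 to 2611 genes for PTH in WT cells, 1435 to 2515 for PTH in Y428F cells (1435 without Y428F vehicle library 1) and 24 to 89 for the difference. The last fell to 46 without WT vehicle library 3, 35 and 38 without WT PTH libraries 1 and 2, 32, 31 and 38 without Y428F vehicle libraries 1, 2 and 3, and 24 without Y428F PTH library 3. Pathway genes called ran from 10 to 16 (10 without WT PTH library 2), 11 to 21 (11 without Y428F vehicle library 1) and 1 to 4 (1 without WT vehicle library 2 or 3, Y428F vehicle library 2 or 3, or Y428F PTH library 3). Scaling to library totals put the share of higher genes among those called at 37.3% (PTH in WT) and 38.1% (PTH in Y428F), against 55.2% and 53.4%, so the majority turned from higher to lower, and at 56.2% and 57.4% for Y428F against WT with vehicle and with PTH, against 49.7% in both. No pairing by replicate number was seen: the 18 same-numbered pairs correlated between -0.15 and 0.24, and 2 of 12 libraries were most like their own number. With 3 libraries a group, a weak shared effect could be missed. With the replicate block 16, 19, 44, 41 and 3 pathway genes were called, against 16, 19, 44, 40 and 3. With the longest transcript the order of *Id3* and *Atoh8* in WT cells with vehicle, and of *Atoh8* and *Id1* in Y428F cells with PTH, was exchanged, and *Id1* no longer overlapped with *Atoh8* in either Y428F group or with *Id2* in WT cells with PTH. Depth limits *Id4*, with 23 counts, and *Bmp4* in WT cells.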
